A study of Mus musculus with 5 samples.

Results

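Hedgehog signalling was followed here through 9 genes taken by name from the count tables, out of 24970 genes in all: the ligand gene Shh, the receptor genes Ptch1, Boc and Smo, the intracellular inhibitor gene Sufu, the transcription factor genes Gli1, Gli2 and Gli3, and Hhip, which encodes a decoy receptor. All 9 were counted in every library and all 9 passed the filter on low counts. RNA was sequenced from bladder urothelium dissected off the muscle layer of 10-week-old mice, with 1 library per mouse. The 3 knockout mice (KO 1, KO 2 and KO 3) had the genotype Krt5CreERT2;Ncstnflox/flox, and the 2 wild types (WT 1 and WT 2) were of strain C57Bl/6. Ncstn encodes nicastrin, a subunit of the gamma-secretase protease that activates Notch receptors. In the knockouts a Cre recombinase that tamoxifen activates is driven by the promoter of Krt5, a keratin gene of basal epithelial cells, so it is directed at basal cells and not at stroma. The sources used here give no dates or scheme of its induction. The labels give the knockouts no strain background and no Cre control group, so the loss of Ncstn cannot be told apart from strain, Cre or induction.

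In the canonical pathway, a hedgehog ligand binds Ptch1 and thereby frees Smo, which acts through the primary cilium to turn Gli proteins into activators of transcription. Gli1, Ptch1 and Hhip are themselves transcribed in response, so their mRNA levels are used as readouts of pathway activity, while Ptch1 and Hhip also bind and limit the ligand. In the mouse bladder, Shh is known as a product of the basal urothelium, and Gli1 as a gene of the stromal fibroblasts beneath it that receive the signal and return Wnt and BMP signals.

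By the main test, the ligand and the readouts parted. Shh mRNA did not differ past the test between knockout and wild-type urothelium, whereas Gli1, Ptch1 and Hhip were 2.69-fold, 2.79-fold and 3.06-fold lower in the knockouts. Gli2, Gli3, Boc, Smo and Sufu did not pass. The stromal genes Pdgfra and Vim also fell, by 1.53-fold and 1.67-fold, and per unit of these stromal genes the 3 readouts were 1.69-fold to 1.99-fold lower in the knockouts, with no overlap between KO and WT libraries. Shh, an epithelial gene, was 1.27-fold lower in the knockouts per unit of the basal cell genes Krt5 and Trp63 (exact permutation test over libraries, p = 0.2).

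Counts assigned to genes came to between 12608836 and 27188499 per KO library and to 13936790 and 19384171 in the WT libraries. Ncstn was at 114, 117 and 123 CPM, read counts scaled to a common library size of 1000000 reads, in the KO libraries, against 144 and 130 CPM in the WT libraries (log2 fold change -0.21, edgeR adjusted p = 0.133), a count over the whole gene and all dissected cells that does not check the deletion. Urothelial and stromal RNA were both present, with Krt5 at 1470 to 2100 CPM in the KO libraries and 1300 and 1680 CPM in the WT libraries, and Upk2 at 1550 to 1730 CPM in the KO libraries and 856 and 924 CPM in the WT libraries. The summed CPM of 15 fibroblast markers was 9540 to 11300 in the KO libraries and 15800 to 17900 in the WT libraries, 12 of the 15 fell and 1 rose, and none was at 0 in any library. The number that fell was 8 without KO 1, 9 without KO 2 and 12 without KO 3. Of 10 endothelial markers 5 fell, of 10 smooth muscle markers 1 fell, of 7 tested immune markers 1 fell, and of 7 tested Schwann cell markers 1 rose, by an edgeR quasi-likelihood fit whose p-values were adjusted (Benjamini-Hochberg) over all genes. Over all tested genes 10.0% fell and 9.64% rose, so the single smooth muscle, immune and Schwann cell calls are near the background share. The smooth muscle markers were mixed, with a median log2 fold change of 0.11. Of these, 2 were higher at an unadjusted edgeR p under 0.05, 2 in DESeq2, 0 in limma-voom and 3 in edgeR without KO 3. Of the immune markers, 3 were lower at an unadjusted edgeR p under 0.05, as were 2566 of all 14779 tested genes. The number of immune markers lower was 1 in DESeq2, 3 in limma-voom, 3 in edgeR without KO 3 and 0 in edgeR without KO 1. Among urothelial markers, 6 of 8 umbrella cell genes and 3 of 8 basal cell genes rose. The number of umbrella cell genes that rose was 4 without KO 1, 3 without KO 2 and 7 without KO 3. The precursor ribosomal RNA Rn45s took 0.608% to 1.53% of gene counts in the KO libraries and 3.23% and 7.84% in the WT libraries. The part of these differences in the results below was not tested, but a stromal reference was measured and 1 fit left out ribosomal and nuclear RNA entries, with any mitochondrial gene entries. In that fit the log2 fold changes were -1.44 for Gli1, -1.49 for Ptch1, -1.63 for Hhip and -0.16 for Shh.

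Read counts were scaled to CPM with TMM factors, and a gene was called when its adjusted p in the edgeR test was under 0.05. By that rule 10.0% of the 14779 tested genes were lower and 9.64% were higher in the knockouts, 19.7% or 2907 genes in all. Leaving out WT 1 brought that total to 715, and the others gave 1429 (WT 2 left out), 1747 (KO 1), 1901 (KO 2) and 3989 (KO 3). Of the 9 hedgehog genes, 3 were lower and none was higher (0 higher at an unadjusted p under 0.05, and 0 in DESeq2 and in limma-voom). The median log2 fold change was -0.35 over the 9 genes and 0.01 over all tested genes. All KO values lay below both WT values for 6 of the 9, where 25.1% of tested genes did so, and above them for none, where 25.9% did. Leaving out KO 3 raised the number lower to 5, with Gli2 and Boc added, and leaving out any other library left it at 3.

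**Figure D1:**
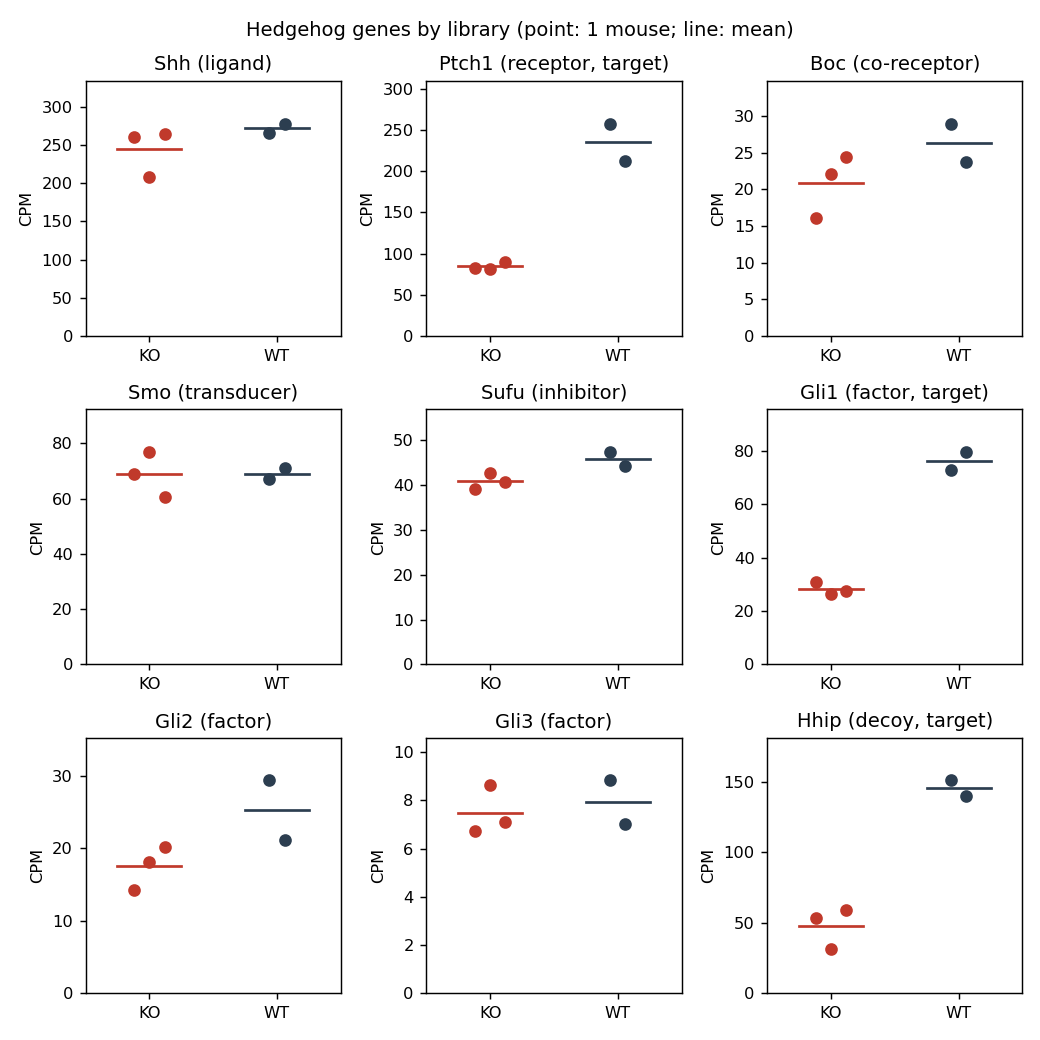
CPM of the 9 hedgehog genes in each library, with KO libraries left of WT libraries, each point 1 mouse and each line the group mean; every vertical axis starts at 0. For Gli1, Ptch1 and Hhip the highest KO point (30.7, 90.2 and 58.6 CPM) lies far under the lowest WT point (72.9, 213 and 140 CPM), while Shh, Smo and Gli3 lie at similar levels in both groups.

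Shh (chromosome 5 from 28456815 to 28467256, minus strand, GRCm38) encodes Sonic hedgehog, the secreted ligand. It was at 261, 208 and 264 CPM in the KO libraries, against 265 and 278 CPM in the WT libraries. KO 2 was the lowest library, and the other KO values sat just under WT 1. The log2 fold change was -0.15 ± 0.12 (SE), with a 95% interval of -0.42 to 0.11, and did not pass (edgeR adjusted p = 0.392). Shh kept this side of the threshold in all 14 other settings, with log2 fold changes of -0.23 to -0.06. Set against the basal cell genes Krt5 and Trp63 as a within-library ratio of CPM, Shh was at 0.294, 0.251 and 0.343 in the KO libraries and at 0.368 and 0.377 in the WT libraries. The KO ratios all lay below the WT ratios, with a difference of -0.34 on the log2 scale (exact permutation test over libraries, two-sided p = 0.2). The share of all tested genes in that position was not measured for this reference, so how common it is cannot be said. Mean Krt5 was 1860 CPM in KO libraries and 1490 CPM in WT libraries. Mean Trp63 was 374 CPM in KO libraries and 361 CPM in WT libraries, and both genes overlapped between genotypes. An exact permutation test of 3 against 2 libraries cannot go below p = 0.1.

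The other ligand genes were far lower than Shh. Ihh, the Indian hedgehog gene, had 6, 1 and 1 reads in the KO libraries and 1 and 2 reads in the WT libraries, and was not tested. Dhh, the Desert hedgehog gene known from Schwann cells, was at 1.43, 2.17 and 1.25 CPM in the KO libraries and at 2.82 and 2.51 CPM in the WT libraries, a difference of -0.72 on the log2 scale that missed the threshold (edgeR adjusted p = 0.139). The Schwann cell factor Sox10 was at 0.701 to 1.38 CPM in the KO libraries and at 0.976 and 1.15 CPM in the WT libraries. Shh, by comparison, had from 3394 to 6935 reads in KO libraries and 3995 and 5074 in WT libraries.

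Ptch1 (chromosome 13 from 63508328 to 63573598, minus strand) encodes the ligand-binding receptor, which holds Smo inactive until ligand binds, and is also a target of the pathway. Its level was 82.0, 81.1 and 90.2 CPM in the KO libraries and 258 and 213 CPM in the WT libraries, from 1159 to 2179 reads in KO libraries and 3058 and 4936 reads in WT libraries. The KO values were close together and less than any WT value by a wide gap. The means were 84.4 ± 5.04 CPM in KO libraries (SD, n = 3) and 235 ± 31.6 CPM in WT libraries (SD, n = 2). The log2 fold change was -1.48 ± 0.11 (SE; edgeR adjusted p = 2.98e-05), and 2.34% of tested genes had one at or below it.

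Boc, Smo and Sufu, which stand between the receptor and the Gli proteins or beside the receptor, did not pass. Boc (chromosome 16 from 44485049 to 44558897, minus strand), a co-receptor that helps present ligand to Ptch1, was at 16.1, 22.1 and 24.4 CPM in the KO libraries and at 29.0 and 23.7 CPM in the WT libraries. Its groups overlapped, and its log2 fold change was -0.35 ± 0.18 (SE; edgeR adjusted p = 0.184), although it passed without KO 3 (log2 fold change -0.50, edgeR adjusted p = 0.0380). Smo (chromosome 6 from 29735503 to 29761365, plus strand), the membrane protein that carries the signal inward, was at 69.1, 76.9 and 60.5 CPM in the KO libraries and at 67.1 and 71.1 CPM in the WT libraries. Its log2 fold change was 0.00 ± 0.11 (SE), with a 95% interval of -0.25 to 0.25. Sufu (chromosome 19 from 46396896 to 46488804, plus strand), which binds Gli proteins and holds them in check, was at 39.1, 42.6 and 40.6 CPM in the KO libraries and at 47.3 and 44.2 CPM in the WT libraries. The Sufu groups did not overlap, but the shift was small, at -0.17 on the log2 scale with a 95% interval of -0.39 to 0.05 (edgeR adjusted p = 0.257).

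The Gli genes split. Gli1 (chromosome 10 from 127329882 to 127341974, minus strand), an activator that is transcribed only weakly without the signal, was at 30.7, 26.4 and 27.5 CPM in the KO libraries and at 72.9 and 79.5 CPM in the WT libraries. These rest on 353 to 816 reads in KO libraries and on 1141 and 1396 reads in WT libraries, and no KO library came near a WT library. The means were 28.2 ± 2.24 CPM in KO libraries (SD, n = 3) and 76.2 ± 4.68 CPM in WT libraries (SD, n = 2). The log2 fold change was -1.43 ± 0.10 (SE; edgeR adjusted p = 3.36e-05), and 2.54% of tested genes had one at or below it. Gli2 (chromosome 1 from 118834132 to 119053619, minus strand), the main activator that the signal acts on first, was at 14.2, 18.1 and 20.2 CPM in the KO libraries and at 29.4 and 21.1 CPM in the WT libraries. KO 3 and WT 2 were close for Gli2, and its log2 fold change of -0.55 ± 0.18 (SE) just missed the threshold (edgeR adjusted p = 0.0572). Gli2 passed in 6 of 14 other settings, among them DESeq2 (adjusted p = 0.0453), limma-voom (adjusted p = 0.0440) and the fit without KO 3 (edgeR adjusted p = 0.0106), and had the same sign in all 14. Gli3 (chromosome 13 from 15463235 to 15730026, plus strand), which acts mainly as a repressor without the signal, was at 6.74, 8.66 and 7.09 CPM in the KO libraries and at 8.83 and 7.04 CPM in the WT libraries. The Gli3 groups overlapped, and the log2 fold change of -0.09 ± 0.19 (SE) did not pass (edgeR adjusted p = 0.773).

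Hhip (chromosome 8 from 79965851 to 80058006, minus strand) encodes a membrane protein that binds hedgehog ligands and keeps them from Ptch1, and is induced by the pathway. It was at 53.4, 30.9 and 58.6 CPM in the KO libraries and at 151 and 140 CPM in the WT libraries. KO 2 was lower than the other KO libraries, and all 3 were far below both WT libraries. The means were 47.7 ± 14.7 CPM in KO libraries (SD, n = 3) and 146 ± 7.61 CPM in WT libraries (SD, n = 2). The log2 fold change was -1.61 ± 0.21 (SE; edgeR adjusted p = 0.000824), and 1.89% of tested genes had one at or below it. Gli1, Ptch1 and Hhip passed, lower in the knockouts, in all 14 other settings, with log2 fold changes of -1.50 to -1.38 for Gli1, -1.63 to -1.34 for Ptch1 and -1.83 to -1.39 for Hhip.

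Since Ptch1 and Hhip fell together, the 250 bases before a start of each are shown, 5′ to 3′ on the gene's strand, from RefSeq on GRCm38.p6. The Ptch1 window, chr13:63565736-63565985, lies before one of several annotated starts, inside the gene as annotated by GENCODE, and the Hhip window is chr8:80058009-80058258. Capitals mark the letters CCACCC on either strand, which are the middle of the Gli binding consensus.
Ptch1: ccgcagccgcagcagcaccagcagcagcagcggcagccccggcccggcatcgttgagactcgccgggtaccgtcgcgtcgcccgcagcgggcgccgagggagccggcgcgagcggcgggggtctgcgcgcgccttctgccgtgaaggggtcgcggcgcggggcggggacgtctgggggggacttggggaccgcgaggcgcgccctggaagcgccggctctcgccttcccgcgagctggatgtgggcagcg
Hhip: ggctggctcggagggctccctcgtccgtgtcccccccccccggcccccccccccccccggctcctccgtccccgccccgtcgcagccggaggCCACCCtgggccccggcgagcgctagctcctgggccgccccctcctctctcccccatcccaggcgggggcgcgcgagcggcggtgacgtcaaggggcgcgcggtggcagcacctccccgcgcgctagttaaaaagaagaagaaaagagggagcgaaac
The full consensus GACCACCCA, searched on both strands, was in none of the windows of the 6 hedgehog genes with one (Ptch1, Smo, Gli2, Gli3, Hhip and Sufu), and 0.225% of 32851 windows of the same length held it. Its inner CCACCC, on either strand, was in 4 of the 6 (Hhip, Smo, Gli2 and Gli3), where 28.1% of all windows held it. Both windows shown are rich in G and C, at 78.4% for Ptch1 and 76.0% for Hhip.

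Levels of different genes were compared per kilobase of exon, with the exons of all annotated GENCODE transcripts merged, which understates a gene with many alternative exons such as Ptch1. In the KO libraries, the order of mean CPM per kb was Shh (85.9), Smo (12.2), Ptch1 (5.95), Gli1 (5.65), Sufu (5.30), Hhip (5.25), Boc (4.69), Gli2 (2.55) and Gli3 (0.782). Ptch1, Gli1, Sufu, Hhip and Boc overlapped with their neighbours in that order, and the other steps did not overlap. In the WT libraries, the order was Shh (95.4), Ptch1 (16.6), Hhip (16.1), Gli1 (15.3), Smo (12.3), Sufu (5.95), Boc (5.92), Gli2 (3.67) and Gli3 (0.827). There Ptch1, Hhip and Gli1 overlapped, and so did Sufu and Boc. The 3 readouts thus stood above Smo in both WT libraries and below it in all 3 KO libraries.

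**Figure D2:**
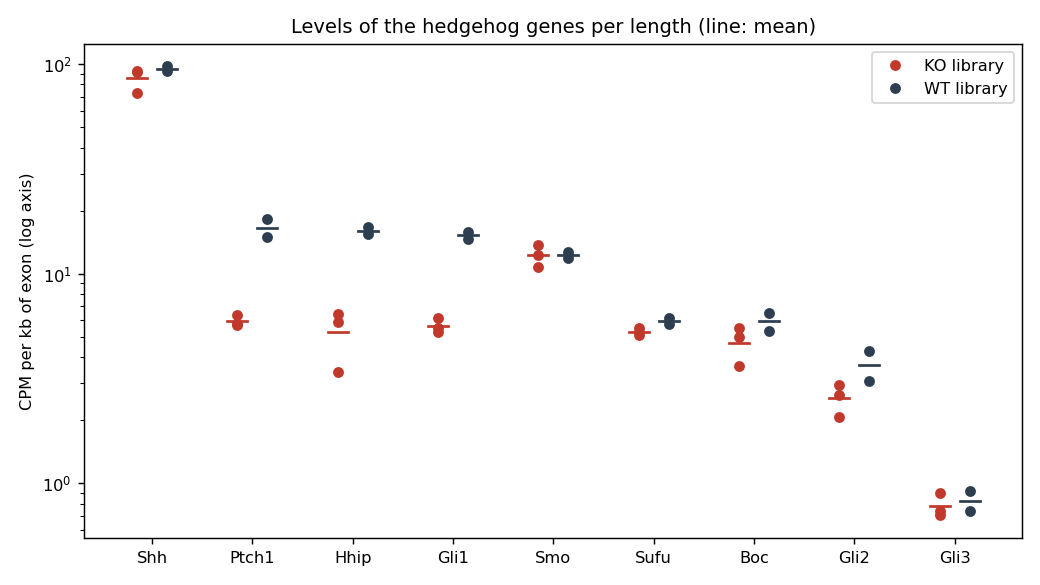
Level of each hedgehog gene per kilobase of exon (CPM per kb, log axis), with KO libraries left of WT libraries for each gene, points for libraries and lines for group means. Ptch1, Hhip and Gli1 average 5.95, 5.25 and 5.65 CPM per kb in KO libraries and 16.6, 16.1 and 15.3 CPM per kb in WT libraries, while Shh stays the highest of the 9 in both.

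Pdgfra, a receptor gene of fibroblasts, and Vim, a filament gene of mesenchymal cells, served as a reference for stromal content. Pdgfra was at 99.5, 119 and 118 CPM in the KO libraries and at 183 and 158 CPM in the WT libraries (log2 fold change -0.61 ± 0.11 SE, edgeR adjusted p = 0.00498; 0.0696 without WT 1). Vim was at 307, 331 and 355 CPM in the KO libraries and at 547 and 559 CPM in the WT libraries (log2 fold change -0.74 ± 0.10 SE, edgeR adjusted p = 0.00126). Both were lower in every KO library than in either WT library. The 12 fibroblast markers that fell had log2 fold changes of -1.59 to -0.41. Of the rest, Clec3b rose (log2 fold change 0.67, edgeR adjusted p = 0.0197). Thy1 (0.86, edgeR adjusted p = 0.0532) and Dpt (0.33, edgeR adjusted p = 0.629) did not pass. Some fell further than this reference: Lum, a matrix proteoglycan gene, had -1.59 (edgeR adjusted p = 2.55e-05), Serpinf1 -1.21 and Mfap5 -1.18. So did the endothelial receptor gene Kdr with -1.26, while the endothelial markers Pecam1 (-0.13) and Vwf (0.14) did not pass. A fall beyond Pdgfra and Vim was therefore not particular to the hedgehog readouts. In bulk RNA, fewer stromal cells and less of an mRNA per stromal cell cannot be told apart. Each hedgehog gene was also divided, within its own library, by the geometric mean of Pdgfra and Vim CPM. That ratio does not tell them apart either, and only compares each gene with this reference.

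On that scale Gli1, Ptch1 and Hhip were still lower in the knockouts. Gli1 stood at 0.176, 0.133 and 0.134 of the reference in the KO libraries and at 0.230 and 0.268 in the WT libraries, a 1.69-fold difference. Ptch1 stood at 0.469, 0.409 and 0.441 in the KO libraries and at 0.814 and 0.718 in the WT libraries, a 1.74-fold difference. Hhip stood at 0.305, 0.156 and 0.287 in the KO libraries and at 0.477 and 0.473 in the WT libraries, a 1.99-fold difference. The KO and WT ratios did not overlap for any of these 3, and each reached the smallest p the exact permutation test allows (two-sided p = 0.1). All KO ratios lay below all WT ratios for these 3 of 9 hedgehog genes, where 4.13% of tested genes did so. The same 3 lay below with Pdgfra alone, with Vim alone and with the 15 fibroblast markers as the reference. These references share Pdgfra or Vim with the main one, so they are not separate checks. The share of all tested genes in that position was not measured for them. Their log2 differences over all 8 other settings were -0.89 to -0.65 for Gli1, -0.90 to -0.71 for Ptch1 and -1.17 to -0.68 for Hhip.

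The remaining hedgehog genes did not follow the readouts. Gli2 overlapped, at 0.0812, 0.0914 and 0.0986 of the reference in the KO libraries and 0.0927 and 0.0711 in the WT libraries (log2 difference 0.15, exact permutation p = 0.6). Boc was barely above, at 0.0919, 0.112 and 0.120 in the KO libraries and 0.0915 and 0.0798 in the WT libraries. With Shh, Smo, Sufu and Gli3 it made 5 genes whose KO ratios all lay above the WT ratios, as did 77.0% of tested genes. Since the reference itself fell, that position is the common one for genes across the table. The ratio of Shh to Gli1 CPM, chosen after the values were seen, was 8.50, 7.89 and 9.61 in the KO libraries and 3.63 and 3.50 in the WT libraries, given with no test.

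**Figure D3:**
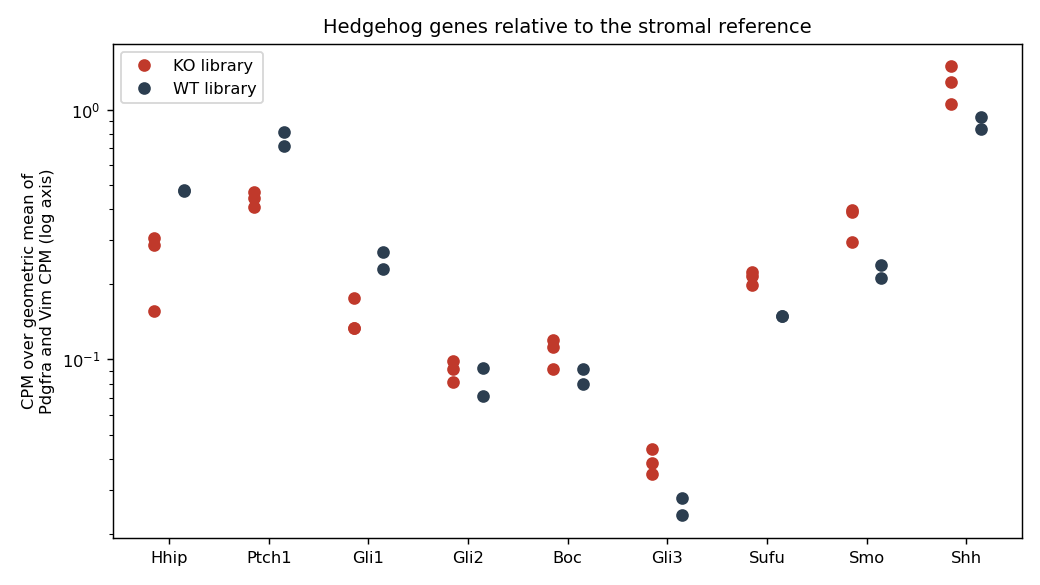
CPM of each hedgehog gene divided by the geometric mean of Pdgfra and Vim CPM in the same library (log axis), with KO libraries left of WT libraries and each point 1 mouse. KO points lie below WT points for Hhip, Ptch1 and Gli1, overlap with them for Gli2, and lie above them for Boc, Gli3, Sufu, Smo and Shh.

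Genes known to respond to hedgehog in mesenchyme or other tissues were taken as a list of 19, of which Foxd1, Mycn and Grem1 were too low to test. Of the 16 tested, 7 were lower (background 10.0%) and none was higher in the main edgeR fit (1 higher at an unadjusted p under 0.05, and 0 in DESeq2 and in limma-voom). In edgeR with no filter on low counts, with a replicate block or without KO 3, 1 gene of the list was higher. The median log2 fold change was -0.20 against 0.01 over all tested genes. Foxl1, a forkhead factor gene of mesenchyme beneath epithelia, had the most negative fold change of the list, at 6.06, 4.63 and 3.97 CPM in the KO libraries and 14.6 and 14.7 CPM in the WT libraries (log2 fold change -1.56 ± 0.19 SE, edgeR adjusted p = 0.000659). Relative to Pdgfra and Vim, Foxl1 was the 1 of 16 response genes whose KO ratios all lay below the WT ratios. Of all tested genes 4.13% did so, and the count is near that share. The Foxl1 ratio differed by -0.93 on the log2 scale (exact permutation p = 0.2).

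The other 6 that fell had log2 fold changes between -0.64 and -0.30, beside -0.61 for Pdgfra and -0.74 for Vim. They were Foxf1, another mesenchymal forkhead factor gene (log2 fold change -0.62), the BMP ligand genes Bmp5 (-0.64) and Bmp4 (-0.48), the cyclin gene Ccnd1 (-0.62), Igfbp6, which encodes a binding protein for insulin-like growth factors (-0.61), and the T-box factor gene Tbx3 (-0.30, edgeR adjusted p = 0.0496). Relative to Pdgfra and Vim, Foxf1, Bmp5, Ccnd1 and Igfbp6 overlapped between genotypes. Bmp4 and Tbx3 were among 11 of 16 response genes above, as were 77.0% of tested genes. The Wnt ligand genes did not move down with Gli1. Wnt2 and Wnt5a had log2 fold changes of -0.01 and 0.00, and Wnt4 was at 287, 323 and 157 CPM in the KO libraries against 147 and 157 CPM in the WT libraries (log2 fold change 0.75, edgeR adjusted p = 0.0521). The number of response genes lower was 3 without WT 2, where Bmp4 (edgeR adjusted p = 0.0544), Bmp5 (0.0856), Igfbp6 (0.155) and Tbx3 (0.0673) did not pass. Without WT 1, the calls of Igfbp6 (edgeR adjusted p = 0.0715) and of Tbx3 (0.247) were lost, as was that of Tbx3 without KO 1 (0.154), without KO 2 (0.109) and with no filter on low counts (0.0518).

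**Figure D4:**
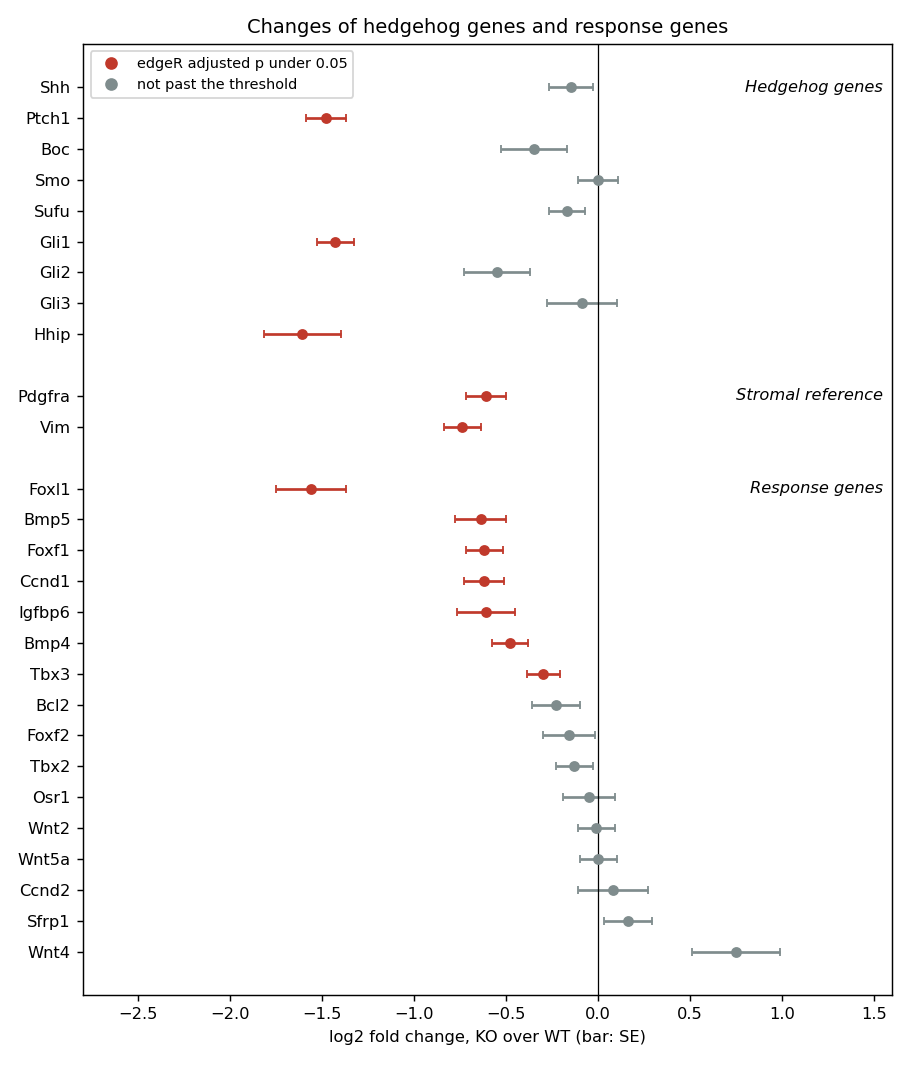
Log2 fold change, KO over WT, of the 9 hedgehog genes, the stromal reference and the 16 tested response genes, with bars for the SE; red points passed the edgeR test at an adjusted p under 0.05 and grey points did not. Hhip, Ptch1, Gli1 and Foxl1 lie between -1.43 and -1.61, to the left of Pdgfra at -0.61 and Vim at -0.74; the fibroblast marker Lum, not drawn, was at -1.59.

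Other components of the pathway were read from lists of 46 genes, of which Ihh, Lrp2 and Hhatl were too low to test. Of the 43 tested, 12 were lower and 1 was higher (background 10.0% lower and 9.64% higher), with a median log2 fold change of -0.27 against 0.01 over all tested genes. Among 9 tested genes of ligand production and release, 4 were lower and none was higher in the main edgeR fit (1 higher at an unadjusted p under 0.05, 1 in DESeq2 and 0 in limma-voom). In edgeR with no filter on low counts, with a replicate block or without KO 1, 1 gene of the list was higher. The 4 lower were Scube3, of a family of secreted proteins that help release ligand (log2 fold change -1.73), Disp1, the transporter that exports ligand (-0.88), and the glypican genes Gpc3 (-1.05) and Gpc6 (-0.48), whose surface proteoglycans bind or handle ligand. Scube2, the best known ligand-releasing member of its family, was at 111, 126 and 164 CPM in the KO libraries and at 104 and 85.9 CPM in the WT libraries and did not pass (edgeR adjusted p = 0.0541). Of 2 tested reception genes, the co-receptor gene Gas1 (log2 fold change -0.85) was lower, and the co-receptor gene Cdon, with a log2 fold change of -0.35, was not (edgeR adjusted p = 0.412).

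Inside the cell, most of the machinery did not pass. Of 16 transduction genes, Evc, part of a complex that passes the signal on from Smo at the cilium (log2 fold change -0.61), and Gpr161, a ciliary receptor that restrains the pathway (-0.65), were lower, and Prkaca, a catalytic subunit gene of protein kinase A, was higher (0.30), counts near the background of 10.0% lower and 9.64% higher. Kif7, the kinesin that works with Gli proteins at the cilium tip, had a log2 fold change of -0.64 and missed the threshold (edgeR adjusted p = 0.0762). Evc2, another transduction gene, had a log2 fold change of -0.44 and missed it more narrowly (edgeR adjusted p = 0.0512). The number of transduction genes lower was 3 in limma-voom and 2 in DESeq2. Of 16 primary cilium genes, 5 were lower (background 10.0%) and none was higher in edgeR (0 higher at an unadjusted p under 0.05, and 0 in DESeq2 and in limma-voom). These were Bbs1 (log2 fold change -1.11), Rpgrip1l (-0.61), Ift80 (-0.52), Dync2h1 (-0.44) and Wdr35 (-0.43), while Ift88 and Kif3a, needed to build the cilium, had log2 fold changes of 0.01 and 0.08. These values stand beside the fall of 12 of 15 fibroblast markers, and the part of that fall in them was not tested.

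Leaving out either WT library leaves 1 WT mouse, and calls were then lost over the whole table and not only in the pathway lists. Gpc3 and Scube3 passed in all 14 other settings. Without WT 1, Bbs1 (edgeR adjusted p = 0.0750), Disp1 (0.0705), Dync2h1 (0.221), Evc (0.0578), Gas1 (0.0567), Gpc6 (0.125), Gpr161 (0.125), Ift80 (0.192), Prkaca (0.212), Rpgrip1l (0.186) and Wdr35 (0.261) did not pass. Without WT 2, Disp1 (edgeR adjusted p = 0.0721), Evc (0.0682), Gpr161 (0.0813), Ift80 (0.0660), Prkaca (0.111) and Wdr35 (0.0940) did not. Dync2h1 (edgeR adjusted p = 0.0846), Gpr161 (0.0683), Prkaca (0.116) and Wdr35 (0.152) also failed without KO 1, and Dync2h1 (0.0751), Ift80 (0.0610), Prkaca (0.155) and Wdr35 (0.0687) without KO 2. With all libraries, the call of Prkaca was lost under upper-quartile scaling (edgeR adjusted p = 0.0683) and that of Wdr35 in DESeq2 (adjusted p = 0.0515). No sign changed in these settings.

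Likeness to Shh and to Gli1 was measured across the 5 libraries as the Euclidean distance between log2 CPM profiles, each centred on its own mean, over 13828 other genes. The nearest to Gli1 were Bambi (distance 0.168), Kif11 (0.171) and Fndc5 (0.177). Bambi was at 15.1, 14.0 and 15.9 CPM in the KO libraries and at 38.0 and 41.5 CPM in the WT libraries. Ptch1 ranked 31 and Hhip 308 in nearness to Gli1, ahead of Vim at 533, Pdgfra at 1032 and Gli2 at 1936, with Shh at 3734. The nearest to Shh were Zfp933 (distance 0.0432), Supt20 (0.0504) and Gm19510 (0.0654), and the nearest hedgehog gene to Shh was Sufu at rank 3064. Over so few libraries these distances only describe the profiles.

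Some hedgehog genes share exon bases with a gene on the opposite strand in GENCODE, and no source used here gives the strand setting of the counting. Shh shares 446 bases with 9530036O11Rik, which had 79 to 248 reads in the KO libraries and 171 and 227 reads in the WT libraries. Gli1 shares 62 bases with Arhgap9, which had 68 to 95 reads in the KO libraries and 105 and 128 reads in the WT libraries. Gli1 and Shh had more reads than these partners in every library. Shh (361 bases), Gli1 (265 bases), Gli3 (188 bases), Hhip (175 bases) and the reference gene Pdgfra (456 bases) also share exon bases with the predicted transcripts Gm26894, Gm47200, Gm6556, Gm27820 and Gm42802, whose levels were not analysed here.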

How the data were processed

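Per the labels' protocols, dissected urothelium was frozen and pulverised, total RNA was extracted with TRI-Reagent, and libraries came from an Illumina TruSeq RNA kit. HISAT2 2.1.0, HTSeq 0.11.1, DESeq2 and build mm10 are named, per the submitters' processing notes. No source used here states the annotation or the strand setting. The deposited values were raw read counts per gene symbol for 24970 genes, 1 file per mouse. In addition, 5 summary entries of the counting program held 39.4% to 50.7% of tallied reads and entered neither library sizes nor tests.

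After filterByExpr (minimum count 10, minimum total 15) and TMM scaling, genes were tested with the edgeR quasi-likelihood test (KO over WT, no covariate) with Benjamini-Hochberg adjustment over 14779 genes at 0.05. The test, run in edgeR 4.0.16 under R 4.3.3, was tested on simulated data; alternatives used DESeq2 1.42.0 and limma 3.58.1. The SE is the log2 fold change over the root of the test's F. Ratios to Pdgfra and Vim were compared with an exact permutation test over libraries. Symbols were matched to GENCODE vM21 (GRCm38) for positions and exon lengths.

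The hedgehog genes, lists and tests were chosen with earlier results of these data known. A gene left out of the pathway and response lists is not reported here. All pathway and response genes past the threshold were named, and Dhh, Ihh, Cdon, Scube2, Kif7, Evc2, Ift88, Kif3a, Wnt2, Wnt4, Wnt5a, Lum, Serpinf1, Mfap5, Clec3b, Thy1, Dpt, Kdr and Vwf were named after their values were seen. Libraries were taken as separate mice, as the design text describes. Alternatives were other scalings, filters and tests, a replicate block, omission of ribosomal and nuclear RNA entries with any mitochondrial gene entries, each library left out, and other stromal references.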

Additional observations from a re-analysis of the deposited data

How the results depend on the processing

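Across 14 other settings, Gli1, Ptch1 and Hhip stayed lower and past the threshold, and Shh, Sufu, Smo and Gli3 stayed short of it. The signs of Smo and Gli3, both near 0, turned: Smo had 0.08 with a replicate block, 0.00 with no filter and -0.10 to 0.06 with 1 library left out, and Gli3 had -0.26 to 0.08 with 1 library left out. Leaving out 1 library at a time gave 715 to 3989 changed genes, 3 to 5 hedgehog genes lower, 2 to 16 pathway genes lower, 3 to 7 response genes lower, and 8 to 9 hedgehog genes whose ratio to the stromal reference did not overlap, and put the log2 ratio difference of Gli2 at -0.04 (without WT 2) to 0.34 (without WT 1). On the ratio to the stromal reference with all libraries, KO lay all below WT for 4.13% of tested genes and all above for 77.0%. A lack of overlap on that ratio is thus the common position across the table. With a replicate block, 4637 genes changed and 5 hedgehog genes were lower, Boc (edgeR adjusted p = 0.00504) and Gli2 (0.000156) added. The titles number the mice but do not say what a number shares, and KO and WT libraries of the same number had deviations correlated at -0.06 and 0.05 across genes, so the numbers were not taken as pairs. KO 3 has no partner and drops out of the contrast in the block fit, which leaves little replication to estimate the spread. Adjusted p-values there were far smaller than in the main fit (edgeR, 9.08e-45 against 0.000824 for Hhip). The calls of Boc and Gli2 with the block are therefore no firmer than their main results. No hedgehog gene was higher in any setting. The cause of these shifts was not tested. With 3 against 2 mice the exact permutation tests of the ratios cannot fall below p = 0.1. At 12608836 to 27188499 gene counts per library, Ihh had too few reads to be tested.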
